A study of Homo sapiens with 6 samples.

Results

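Metallothioneins are small cysteine-rich proteins that bind zinc and copper, and MTF1 is the zinc finger transcription factor that switches on their genes when free zinc rises. The 5 genes described here, MT1E, MT1F, MT1X, MT2A and MTF1, were taken by symbol from the 6 libraries of a FOXD3 knockdown experiment in the A549 line, derived from a human lung carcinoma. All 5 of the 17789 symbols that any library listed were found, and 4 of them were among the 13340 genes that could be tested. The experiment held 3 libraries of a control group, labelled wild type, and 3 of a group labelled FOXD3 knockdown. The knockdown group was transfected with a pool of small interfering RNAs against FOXD3 using a lipid reagent, and knockdown was examined 72 h later, per the labels' protocols, which do not state what the control cells received or when RNA was taken. Replicate numbers are names given here in accession order and pair nothing. The labels give no origin of the replicates, so the p-values describe the spread between these 3 and 3 libraries, which may be technical.

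The metallothionein genes lie side by side on chromosome 16, between 56598961 and 56718108 of hg19 for those listed in these files, a span of 119 kb. MT2A and the many MT1 genes encode nearly the same protein, expressed in most epithelia, while MT3 and MT4 are known mainly from brain and stratified epithelium. Zinc released in the cell binds MTF1, which enters the nucleus and binds short metal response elements in front of metallothionein and zinc exporter genes. Glucocorticoids and inflammatory cytokines also induce MT2A, so the gene is known as an acute-phase as well as a metal-response gene.

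The coding sequences of the 4 metallothionein members are printed because their likeness decides how safely reads can be assigned to each gene. Each was read from the first-named transcript of GENCODE 29 (GRCh38, plus strand of chromosome 16), start to stop codon. Capitals mark bases that differ from MT2A at the same position.
MT2A: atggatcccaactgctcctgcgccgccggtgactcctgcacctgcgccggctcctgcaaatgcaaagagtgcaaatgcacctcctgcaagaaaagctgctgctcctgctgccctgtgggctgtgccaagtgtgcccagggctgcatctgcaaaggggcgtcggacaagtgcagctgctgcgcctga
MT1X: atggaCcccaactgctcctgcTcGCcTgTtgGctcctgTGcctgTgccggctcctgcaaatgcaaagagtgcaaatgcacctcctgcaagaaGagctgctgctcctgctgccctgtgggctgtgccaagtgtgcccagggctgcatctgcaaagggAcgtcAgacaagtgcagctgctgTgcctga
MT1F: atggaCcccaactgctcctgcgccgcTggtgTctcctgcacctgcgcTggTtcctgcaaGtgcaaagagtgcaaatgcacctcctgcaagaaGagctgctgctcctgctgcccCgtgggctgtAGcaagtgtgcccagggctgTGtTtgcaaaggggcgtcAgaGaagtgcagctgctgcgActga
MT1E: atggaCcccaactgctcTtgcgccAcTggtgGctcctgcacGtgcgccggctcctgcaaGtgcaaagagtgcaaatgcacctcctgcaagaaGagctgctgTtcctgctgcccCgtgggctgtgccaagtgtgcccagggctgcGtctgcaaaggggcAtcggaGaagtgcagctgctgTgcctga

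Each of these 4 reading frames is 186 bases long and holds 20 cysteine codons among its 61 codons before the stop. MT1X and MT1E each differ from MT2A at 14 bases (92.5% identity) and MT1F at 16 (91.4%). The transcripts are less alike outside the reading frame. Of all 50-base windows of the MT2A transcript, 4.88% occur in a transcript of another gene, against 3.59% for MT1F and 5.34% for MT1E. MT1X stood apart with 45.1%, and for windows of 100 bases it still shared 19.1%, with the annotated transcript AC026461.1, where the MT2A, MT1F and MT1E transcripts shared 0. Read length is not given in the sources used here, so reads of MT1X may be divided with other transcripts more than those of MT2A, MT1F or MT1E.

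The control label was first checked on FOXD3 itself, a forkhead transcription factor (chromosome 1, 63788730 to 63790797, hg19). FOXD3 measured 0.152, 0.291 and 0.134 FPKM in control replicates 1, 2 and 3. In the knockdown group only replicate 2 listed it, at 0.0749 FPKM. FPKM scale fragments to transcript length and to the number mapped, so levels can be compared between genes. The groups did not overlap (p = 0.1 by exact permutation, two-sided, which is the lower limit for 3 against 3 libraries). Single fragments of intronless genes put the depth at roughly 6300000 to 7910000 fragments per library, an estimate from 4 to 8 genes each, so FOXD3 was near the detection limit throughout. Of 6 epithelial markers all were listed, with summed levels of 6743 to 7707 FPKM in control and 8754 to 8832 in knockdown libraries. They did not move together: mean KRT8 went from 2059 to 3203 FPKM and KRT18 from 2101 to 2663, both called higher like EPCAM. CDH1 (48.2 to 41.3) and KRT7 (1709 to 1545) were called lower, and KRT19 did not pass. Of 6 markers of alveolar type II cells, SFTPB was listed in 0 libraries, SFTPC in 1 and SFTPA1 in 5 at no more than 0.139 FPKM. SFTPD ran from 0.344 to 1.16 FPKM in control and from 0.0826 to 0.159 in knockdown libraries, and ABCA3, a lipid transporter of lamellar bodies, fell from 4.75 to 2.65 FPKM. Leukocyte, endothelial and fibroblast lists summed to 2.42 to 4.03, 2.55 to 3.40 and 3.61 to 4.56 FPKM in control and to 1.31 to 2.02, 1.87 to 2.18 and 2.96 to 3.58 in knockdown libraries. Most of these sums was CD14 (0.984 to 3.38 FPKM over the 6 libraries, called lower), CDH5 (1.68 to 3.13, called lower) and COL1A1 (2.94 to 4.29, not passed), while PTPRC, PECAM1 and COL1A2 were at or below 0.309, 0.141 and 0.102. The part of these markers in the results below was not tested.

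MT2A (Entrez 4502, chromosome 16, 56642478 to 56643409, hg19) was the main metallothionein of these cells and fell in the knockdown. It measured 1340, 1230 and 1195 FPKM in control replicates 1, 2 and 3 and 899, 896 and 878 FPKM in knockdown replicates 1, 2 and 3. Every control library was above every knockdown library, and the 3 knockdown values lay within a narrow range. The group means were 1255 ± 75.5 and 891 ± 11.2 FPKM (SD, n = 3 each), 1.41-fold lower in the knockdown. On the log2(FPKM + 1) scale the difference, knockdown minus control, was -0.49 (SE 0.048; limma, Benjamini-Hochberg adjusted p = 5.33e-05), and the call held in all 14 processing alternatives, with differences from -0.53 to -0.36. In bulk RNA, fewer cells with a transcript and less of it in each cell cannot be told apart. MT2A ranked 79 to 89 by FPKM among all symbols in the control libraries and 109 to 114 in the knockdown libraries.

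The size of that fall was moderate for this experiment. Of all tested genes 63.5% passed the test in either direction, 37.9% lower and 25.6% higher, and 32.2% passed with a larger absolute log2 difference than MT2A. Among the 4 tested members 2 passed, MT2A lower and MTF1 higher, so the share of members called was not above that of all genes. Groups did not overlap for MT2A, MT1F and MTF1, 3 of the 4 tested members, where 69.1% of all tested genes had groups that do not overlap, 40.8% lower and 28.3% higher. The median log2 difference of all tested genes was -0.09 with FPKM as deposited and 0.02 after median scaling, so the tested members are to be read against it.

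**Figure D1:**
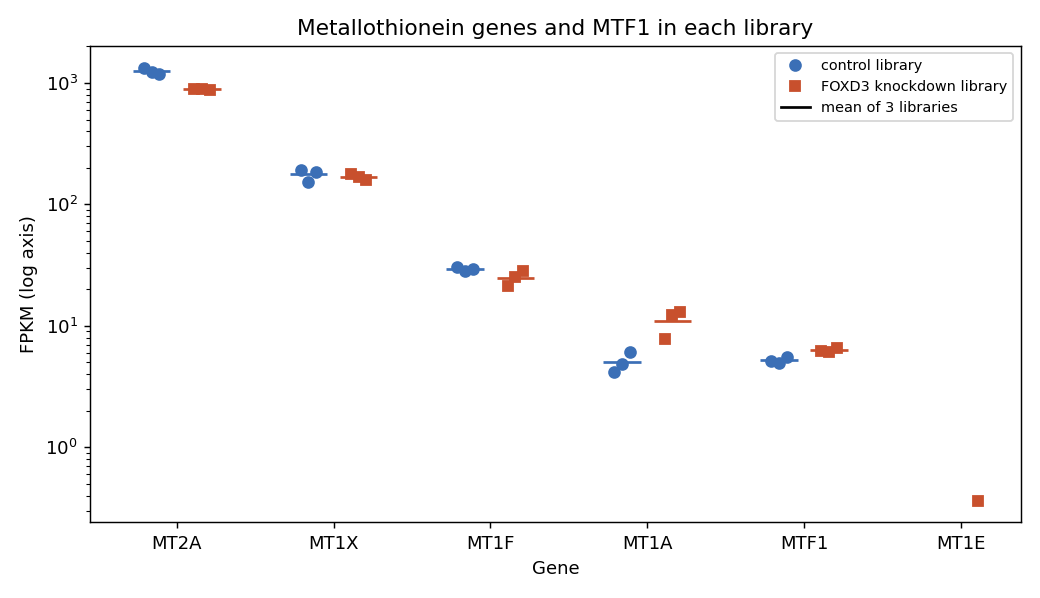
FPKM on a log axis for 5 metallothionein genes and MTF1 in each control library (circles) and FOXD3 knockdown library (squares), with a bar at each mean of 3 libraries. MT2A squares (878 to 899) lie below its circles (1195 to 1340), MT1X groups overlap, MT1A and MTF1 squares lie above their circles, and MT1E appears in 1 library only.

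MT1X (Entrez 4501, chromosome 16, 56716382 to 56718108, hg19), the next most abundant member, showed no call. It measured 191, 154 and 186 FPKM in control replicates 1, 2 and 3 and 177, 169 and 159 FPKM in knockdown replicates 1, 2 and 3. Control replicate 2 was the lowest of all 6, so the groups overlapped. The means were 177 ± 20.3 and 168 ± 8.68 FPKM, a log2 difference of -0.07 with a 95% interval from -0.26 to 0.12 that is not adjusted for the number of genes (limma, Benjamini-Hochberg adjusted p = 0.492). The direction depended on scaling, since the difference was 0.06 after median scaling (adjusted p = 0.568). The call depended on 1 library, since without control replicate 2 the difference was -0.17 and passed (adjusted p = 0.0311).

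MT1F (Entrez 4494, chromosome 16, 56691855 to 56693215, hg19), a lower-abundance MT1 gene, lay at the edge of the threshold. It measured 30.4, 28.3 and 29.6 FPKM in the control libraries and 21.3, 25.1 and 28.2 FPKM in the knockdown libraries. The lowest control value and the highest knockdown value were almost equal, although the groups did not overlap. The log2 difference was -0.24 with an unadjusted 95% interval from -0.46 to -0.03 and did not pass (limma, Benjamini-Hochberg adjusted p = 0.05004). Over the 14 alternatives the adjusted p ran from 0.0111 without knockdown replicate 3 to 0.341 after median scaling, where the difference was -0.11, and it passed in 5 of them.

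MT1E (Entrez 4493, chromosome 16, 56659585 to 56661024, hg19) was close to undetected. It was listed at 0.363 FPKM in knockdown replicate 1 and was not listed in the other libraries. At the estimated depth that value corresponds to about 1.88 fragments, and 3 fragments would correspond to 0.539 to 0.677 FPKM depending on the library. A symbol that is not listed can be an undetected transcript or an estimate that the software did not return, and the files do not separate these. MT1E lay under the filter of a mean of 0.5 FPKM and was not tested, so no difference between the groups was measurable.

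MTF1, the transcription factor of the group (Entrez 4520, chromosome 1, 38275239 to 38325292, hg19), rose slightly in the knockdown while its best known target MT2A fell. It measured 5.10, 4.94 and 5.55 FPKM in control replicates 1, 2 and 3 and 6.23, 6.14 and 6.62 FPKM in knockdown replicates 1, 2 and 3. All 3 knockdown libraries were above all 3 control libraries. The means were 5.19 ± 0.317 and 6.33 ± 0.255 FPKM, 1.22-fold higher, with a log2 difference of 0.24 (SE 0.075; limma, Benjamini-Hochberg adjusted p = 0.0209). The call was lost without control replicate 2 (adjusted p = 0.0624), without knockdown replicate 1 (0.0507) or without knockdown replicate 3 (0.0764), while median scaling and quantile normalization gave larger differences of 0.36 and 0.43.

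The authors' deposited table of their own comparison held 4 of the 5 members and called 0 of them at a false discovery rate of 0.05, a threshold that 22.1% of its 12275 genes passed. For MT2A the authors' deposited table gave 1197 and 935 FPKM in control and knockdown, a log2 fold change of -0.36 and a false discovery rate of 0.254. For MTF1 the authors' deposited table gave a log2 fold change of 0.38 and a rate of 0.235, for MT1F -0.11 and 0.878, and for MT1X 0.05 and 0.919. The 2 sources thus had the same direction for MT2A, MTF1 and MT1F and opposite directions for MT1X, and the MT2A and MTF1 calls stand in the fit to the 6 libraries only. Some genes reported below as higher or lower were not called in the authors' deposited table. These were MT1A (0.0998), SLC30A1 (0.315), SLC30A6 (0.190), SLC39A9 (0.134), SEPW1 (0.447) and COX11 (0.175). The authors' deposited table did call TSC22D3, DUSP1, PER1, FKBP5, PGF, GCLM, HMOX1, SRXN1, ATP7A, SLC31A2, SLC39A13 and SLC39A4. It had no entry under the symbols ATP7B, SLC30A4 or HSPA1A. SLC30A9, HSPA1B and the genes beside the cluster were not compared with it.

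Ratios between members within each library do not depend on a factor that scales a whole library, although quantile normalization can change them. MT2A was 7.01, 8.0 and 6.41 times MT1X in the control libraries and 5.09, 5.32 and 5.51 times in the knockdown libraries. The groups did not overlap, and the mean log2 ratio went from 2.83 ± 0.16 to 2.41 ± 0.058 (SD, n = 3), a difference of -0.42. MT2A was 263, 249 and 215 times MTF1 in the control libraries and 144, 146 and 133 times in the knockdown libraries, a difference in log2 ratio of -0.78. The ratios of MT1X to MTF1 and of MT1F to MTF1 were lower in the knockdown as well, by -0.36 and -0.54 on the log2 scale, again without overlap. For these 4 of 6 pairs p was 0.1 by exact permutation over libraries, again the lower limit of the design, and 0.15 after Benjamini-Hochberg adjustment over the 6 pairs. The 2 other pairs overlapped between groups: MT2A to MT1F differed by -0.24 (exact permutation p = 0.2, adjusted 0.24) and MT1X to MT1F by 0.18 (p = 0.4, adjusted 0.4). No pair could pass the threshold in a design of this size. Of all tested genes taken singly, 69.1% had groups that do not overlap, and the share over all pairs of genes was not computed. The pairs without overlap, except MT2A to MT1X, all include MTF1, so they are not separate observations.

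**Figure D2:**
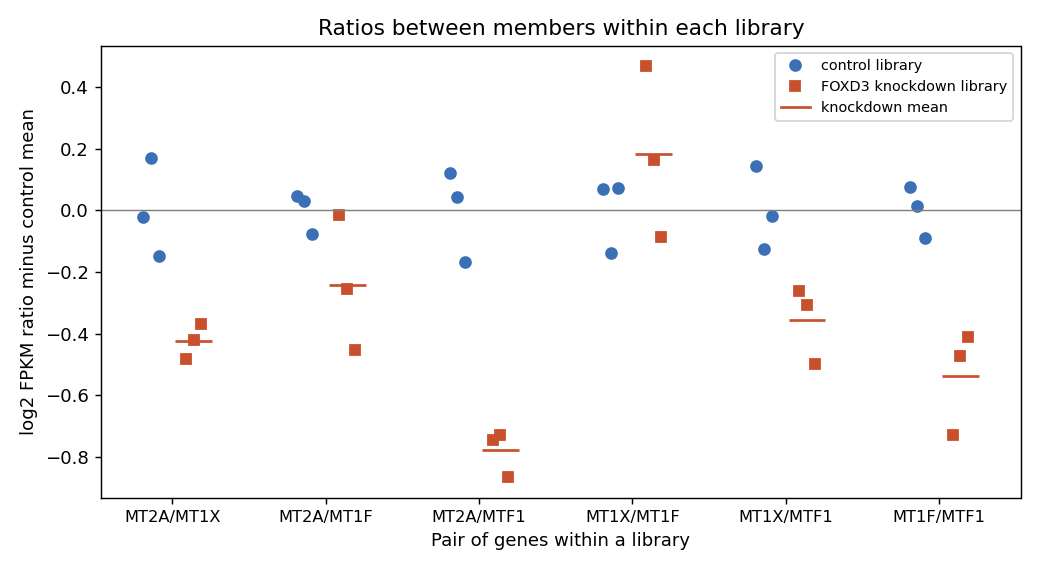
Log2 FPKM ratio of each pair of members within a library, minus the mean of the control libraries, for control (circles) and FOXD3 knockdown libraries (squares), with a bar at the knockdown mean. Squares lie apart from circles for MT2A/MT1X, MT2A/MTF1, MT1X/MTF1 and MT1F/MTF1, and overlap with them for MT2A/MT1F and MT1X/MT1F.

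Of the 12 other metallothionein genes and pseudogenes in the list, 5 were listed in at least 1 library and 2 could be tested. MT1A (Entrez 4489, chromosome 16, 56672578 to 56673999, hg19) went the opposite way to MT2A. It measured 4.13, 4.85 and 6.06 FPKM in control replicates 1, 2 and 3 and 7.79, 12.2 and 13.1 FPKM in knockdown replicates 1, 2 and 3. All knockdown libraries were above all control libraries, with the widest spread among the knockdown values. The means were 5.01 ± 0.98 and 11 ± 2.84 FPKM, 2.20-fold higher, with a log2 difference of 0.98 (SE 0.19; limma, Benjamini-Hochberg adjusted p = 0.00205), and the call held in all 14 alternatives. The counts behind it are small: for a transcript of 396 bases the estimated depth gives about 11.1 to 17.4 fragments per control library and 22.6 to 41.1 per knockdown library, before any correction for fragment length. Of 50-base windows of the MT1A transcript, 5.76% occur in a transcript of another gene, MT1X and MT1F among them, and of 100-base windows 0. The authors' deposited table gave MT1A a log2 fold change of 1.27 and a false discovery rate of 0.0998. Set against MT2A, MT1A amounted to 0.308%, 0.394% and 0.507% of the MT2A level in control replicates 1, 2 and 3 and to 0.867%, 1.36% and 1.49% in knockdown replicates 1, 2 and 3.

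The remaining relatives were sparse. The pseudogene MT1DP was listed at 4.19 and 3.34 FPKM in control replicates 2 and 3, not in replicate 1, and at 0.722, 3.83 and 2.41 FPKM in the knockdown libraries. It did not pass (log2 difference 0.11; limma, Benjamini-Hochberg adjusted p = 0.888). Its mean FPKM went the other way, from 2.51 in control to 2.32 in knockdown. Control replicate 1 entered both values as 0, so MT1DP has no clear direction. MT1B was listed in control replicate 2 at 0.729 FPKM, MT3 in control replicates 1 and 3 at 0.320 and 0.293, and MT4 in knockdown replicate 2 at 1.21. MT1G, MT1H, MT1L, MT1M, MT1IP, MT1JP and MT1HL1 were listed in 0 libraries; for MT1G and MT1M 3 fragments would correspond to at most 1.18 and 0.575 FPKM.

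Summed over the family, metallothionein transcripts came to 1566, 1422 and 1421 FPKM in control replicates 1, 2 and 3 and to 1106, 1107 and 1081 FPKM in knockdown replicates 1, 2 and 3. The means were 1469 ± 83.5 and 1098 ± 14.4 FPKM, 25.3% lower in the knockdown, or 0.240% and 0.182% of all FPKM in a library. MT2A made up 85.4% ± 1.20 of the family's FPKM in control and 81.2% ± 0.175 in knockdown libraries. The share of MT1X was 12% ± 1.16 and 15.3% ± 0.627, that of MT1F 2.01% ± 0.071 and 2.27% ± 0.341, and that of MT1A 0.344% ± 0.082 and 1.01% ± 0.267. No test was made on the sum or the shares.

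The other genes of the cluster's surroundings did not share 1 direction. Within 250 kb on either side of the metallothionein genes, a set chosen after values had been seen, 7 other genes could be tested, of which 3 were higher, 3 lower and 1 did not pass, where 63.5% of all tested genes were called. NUP93, a nuclear pore component that lies next to MT1X, went from 29.4 to 42.9 FPKM and OGFOD1, a ribosomal protein hydroxylase, from 13.9 to 17.9. BBS2, a subunit of the BBSome of primary cilia and the closest listed gene on the MT4 side, went from 30.8 to 15.0 FPKM, and GNAO1, a G protein alpha subunit, from 8.48 to 1.39.

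Promoter sequences were taken from RefSeq (GRCh38.p14), which matched 3 of the 5 members by symbol, MT2A, MT1X and MTF1. Those of MT2A and MT1X are shown because they hold the core motif that MTF1 is known to bind. The 250 bases before the start of each gene were searched on both strands for the core of the metal response element, TGCGCNC or TGCACNC, which cannot match the same 7 bases on 1 strand at once. Capitals mark matches; a match on the opposite strand is shown as its reverse complement.
MT2A, chr16:56608334-56608583, GRCh38.p14, plus strand: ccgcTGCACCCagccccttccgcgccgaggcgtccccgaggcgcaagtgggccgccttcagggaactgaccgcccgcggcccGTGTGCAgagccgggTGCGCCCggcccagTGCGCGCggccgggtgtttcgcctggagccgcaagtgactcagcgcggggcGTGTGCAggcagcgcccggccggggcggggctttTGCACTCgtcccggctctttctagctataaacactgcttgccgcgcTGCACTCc
MT1X, chr16:56682220-56682469, GRCh38.p14, plus strand: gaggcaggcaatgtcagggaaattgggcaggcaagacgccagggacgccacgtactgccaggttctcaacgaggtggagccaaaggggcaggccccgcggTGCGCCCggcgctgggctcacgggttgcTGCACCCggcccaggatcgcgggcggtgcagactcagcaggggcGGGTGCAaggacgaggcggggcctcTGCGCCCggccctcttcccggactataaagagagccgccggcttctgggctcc

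The MT2A window held 7 matches, 5 on the gene's own strand and 2 on the other, and the MT1X window held 4, 3 on its own strand and 1 on the other. Among 35116 such RefSeq windows, 24.8% held at least 1 match, 0.37% at least as many as MT1X and 0.0313% at least as many as MT2A. MT1H, which 0 libraries listed, had 8 matches in its own window, more than MT2A. The MTF1 window (chr1:37859593-37859842, GRCh38.p14, minus strand) held 0 matches. These letters describe the windows; binding was not measured.

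Genes of zinc transport were called in both directions. Of 10 SLC30 genes, a family known mainly as zinc exporters, 8 were tested, with 3 higher, 2 lower and 3 that did not pass. Their median log2 difference was -0.03 against -0.09 for all tested genes. The share called is near the 63.5% of all tested genes (25.6% higher, 37.9% lower). SLC30A1, the plasma membrane zinc exporter and a target of MTF1, measured 7.22, 6.19 and 6.97 FPKM in control and 8.50, 8.58 and 8.19 FPKM in knockdown replicates 1, 2 and 3. Its groups did not overlap, and it rose by a log2 difference of 0.28 (SE 0.075; limma, Benjamini-Hochberg adjusted p = 0.0119), the same direction as MTF1 and MT1A and opposite to MT2A. SLC30A6, a subunit of a zinc transporter of the secretory pathway, rose from 12.9 to 16.6 FPKM, and its partner SLC30A5, at 19.3 and 19.9 FPKM, did not pass. The lower calls were SLC30A9 and SLC30A4, the latter close to the filter of 0.5 FPKM at 0.762 and 0.332 FPKM. The count lower was 0 after median scaling, without control replicate 2 and without knockdown replicate 1. It was 1 after quantile normalization, without a trend in eBayes, and without knockdown replicate 2 or knockdown replicate 3. With the filter at 5 FPKM and without control replicate 3 it was also 1, but SLC30A4 was not tested there. Without control replicate 3 the lower call was SLC30A3 (-0.44; limma, Benjamini-Hochberg adjusted p = 0.0187).

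Of 14 SLC39 genes, which bring zinc into the cytosol, 11 were tested, with 4 higher, 2 lower and 5 that did not pass, and a median log2 difference of 0.09, again a share called near the 63.5% of all tested genes. After median scaling 7 were higher and 1 lower. SLC39A13, a zinc transporter of intracellular vesicles, fell from 14.6 ± 0.384 to 8.27 ± 0.359 FPKM, a log2 difference of -0.75 (SE 0.061; limma, Benjamini-Hochberg adjusted p = 2.18e-05). SLC39A4, the zinc importer lost in acrodermatitis enteropathica, rose from 18.5 ± 1.37 to 24.9 ± 2.74 and SLC39A9 from 28.6 ± 1.24 to 36.7 ± 0.345 FPKM. SLC39A4 stood at 74.0 and 113 FPKM in the authors' deposited table, far above its level in the single libraries, so its level is uncertain. SLC39A14 and SLC39A8, importers that inflammation is known to induce, stood at 19.1 and 20.3 and at 13.9 and 13.0 FPKM in control and knockdown and did not pass.

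Other known targets of MTF1 were called in both directions. Of 7 such genes 6 were tested, with 1 higher (SLC30A1), 2 lower and 3 that did not pass; 63.5% of all tested genes were called, so this share was not above that of all genes. After median scaling 3 were higher and 1 lower. PGF, the placental growth factor, fell from 4.47 ± 0.578 to 1.5 ± 0.182 FPKM (log2 difference -1.13; limma, Benjamini-Hochberg adjusted p = 5.24e-05). SEPW1, selenoprotein W, fell from 106 ± 13.7 to 81.4 ± 2.33 FPKM, a call that median scaling ended (adjusted p = 0.0559). SLC39A10, a zinc importer that MTF1 is known to repress, stood at 9.89 and 9.66 FPKM and GCLC, the catalytic subunit of glutathione synthesis, at 9.23 and 10.3 FPKM. Neither passed, although GCLC did after median scaling (0.28, adjusted p = 0.0454).

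**Figure D3:**
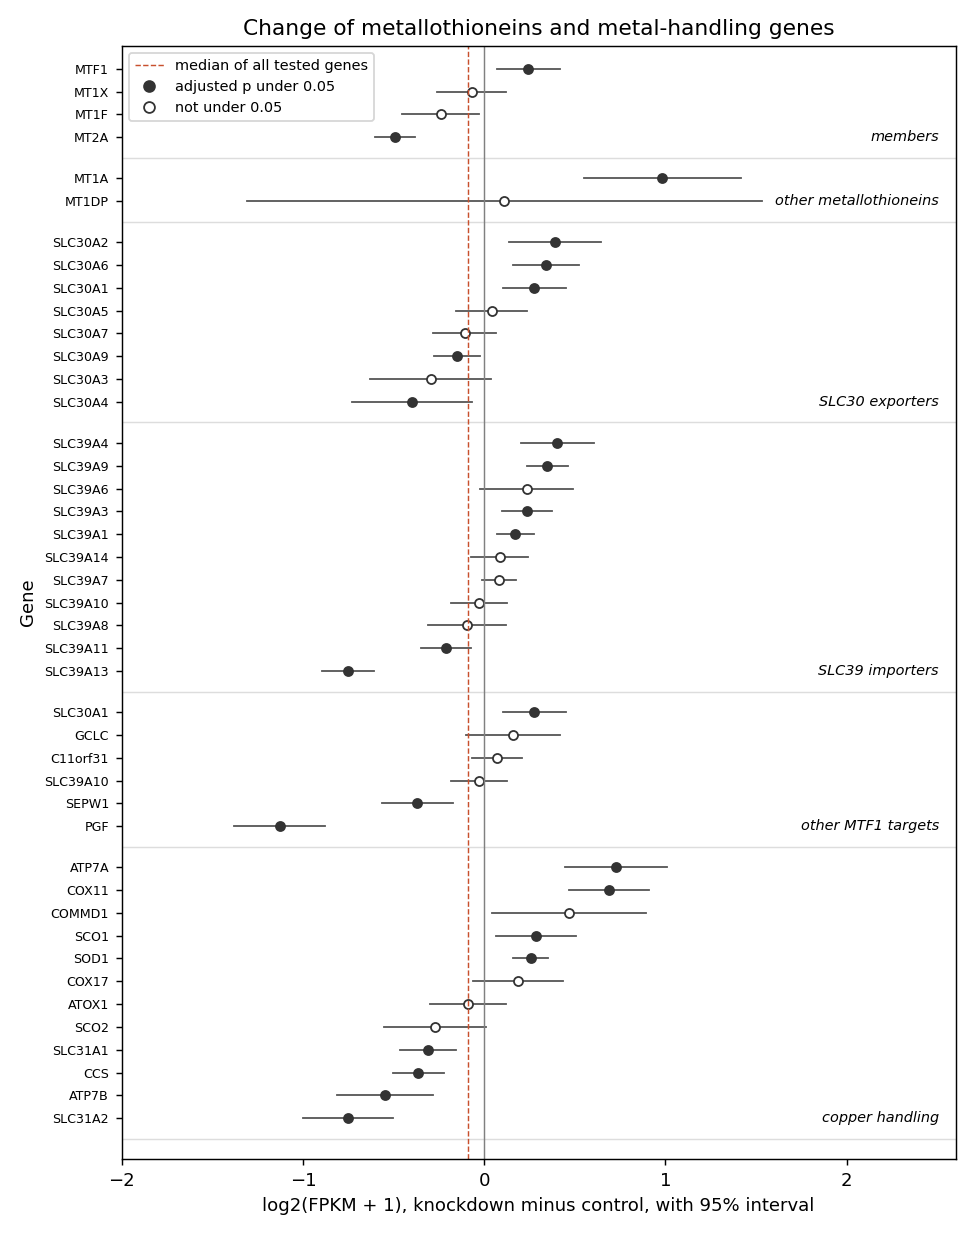
Difference in log2(FPKM + 1), knockdown minus control, with its unadjusted 95% interval, for tested members, other metallothioneins, zinc transporters, other MTF1 targets and copper handling genes; filled points passed at an adjusted p under 0.05 and the dashed line is the median of all tested genes. MT2A (-0.49) and MTF1 (0.24) lie on opposite sides of 0, and each of the SLC30, SLC39 and copper groups has filled points on both sides.

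Metallothioneins also bind copper, and copper handling genes were called in both directions. Of 12 genes, all tested, 4 were higher, 4 lower and 4 did not pass, a share called near the 63.5% of all tested genes, and the count higher ran from 3 to 6 over the alternatives. ATP7A, the copper-exporting ATPase, rose from 1.63 ± 0.331 to 3.34 ± 0.4 FPKM, while ATP7B, the ATPase affected in Wilson disease, fell from 0.839 ± 0.126 to 0.255 ± 0.0615. ATP7B reached the filter of 0.5 FPKM only through its control libraries, so its lower call is not independent of that filter. It was not tested without control replicate 1 or control replicate 3, nor with the filter at 5 FPKM. SLC31A2, a copper transporter of endosomes, fell from 19.6 ± 2.79 to 11.2 ± 1.20 FPKM, and COX11, a copper chaperone of cytochrome oxidase, rose from 15.8 ± 2.45 to 26 ± 0.645. The abundant copper chaperones ATOX1 and COX17, at 162 and 152 and at 138 and 156 FPKM, did not pass. ATOX1 passed without control replicate 2 (-0.21, adjusted p = 0.00612), and COX17 passed without control replicate 1 (0.32, adjusted p = 0.00192) and after median scaling (0.32, adjusted p = 0.0415).

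Genes outside the family that heavy metals and oxidants are known to induce were mostly higher. Of 8 tested, 6 were higher, 0 lower and 2 did not pass, where 25.6% of all tested genes were higher and 37.9% lower. HSPA1A and HSPA1B, which share reads, both count among the 6. The list was chosen with earlier results of these data known, so the count is a description and no separate evidence. The list had a median log2 difference of 0.50 against -0.09 for all tested genes; the higher count was 7 after median scaling, 5 after quantile normalization and 6 in the other alternatives. HMOX1, heme oxygenase, measured 9.39, 11.3 and 8.12 FPKM in control and 15.0, 17.1 and 16.8 FPKM in knockdown replicates 1, 2 and 3 (log2 difference 0.71; limma, Benjamini-Hochberg adjusted p = 0.000699). GCLM, the modifier subunit of glutathione synthesis, rose 1.77-fold, SRXN1, sulfiredoxin, 1.49-fold, and HSPA1A, an inducible HSP70 whose reads are shared with HSPA1B, 1.46-fold. TXNRD1, thioredoxin reductase, at 472 and 482 FPKM, and HSPA6, at 1.10 and 0.287, did not pass. HSPA6 was lower with robust eBayes (adjusted p = 0.0481) and without control replicate 1 (-0.94, adjusted p = 0.00273), and TXNRD1 was higher after median scaling (0.16, adjusted p = 0.0158) and lower after quantile normalization (-0.10, adjusted p = 0.0473).

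Glucocorticoid target genes were mostly lower. Of 8 genes, the receptor gene NR3C1 and its common targets, 7 were tested, with 5 lower, 1 higher and 1, NR3C1, that did not pass. Of all tested genes 37.9% were lower and 25.6% higher. The list had a median log2 difference of -0.86. It was chosen with earlier results of these data known, so the count is a description and no separate evidence. TSC22D3, a glucocorticoid-induced leucine zipper protein, measured 18.6, 20.9 and 19.8 FPKM in control and 7.91, 7.64 and 8.91 FPKM in knockdown replicates 1, 2 and 3. DUSP1, a MAP kinase phosphatase, was 3.03-fold and PER1, a clock component, 2.05-fold lower. FKBP5, a chaperone of the receptor, went the other way, from 3.46 ± 0.542 to 7.33 ± 0.607 FPKM. The receptor gene NR3C1 stood at 13.9 ± 1.37 and 15.0 ± 0.156 FPKM and did not pass (log2 difference 0.11; limma, Benjamini-Hochberg adjusted p = 0.248), except after median scaling (0.23, adjusted p = 0.0185). Cortisol or another inducer was not measured, and several of these genes respond to other signals as well.

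The genes most like each member were sought by the smallest root mean square difference over the 6 libraries of log2(FPKM + 1) centred on the control mean, among genes of at least 5 FPKM on average. Closest to MT2A were LONP1, a mitochondrial protease, at a root mean square difference of 0.022, PLSCR1, an interferon-induced phospholipid scramblase, at 0.026, and JUN, an AP-1 subunit, at 0.029, where the median gene was at 0.386. Closest to MTF1 were DIEXF, GALNT6 and NXT2 at 0.022 to 0.029. MT1X was closest to ATPAF2, RRAGA and the copper chaperone ATOX1, at 0.044 to 0.050, and MT1F to LRRC1, KDSR and CNO, all at 0.053. The measure compared 9169 genes over the same 2 groups of 3, so it includes the difference between the groups. The genes named were picked for the smallest values, so lying below the median gene follows from that choice.

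**Figure D4:**
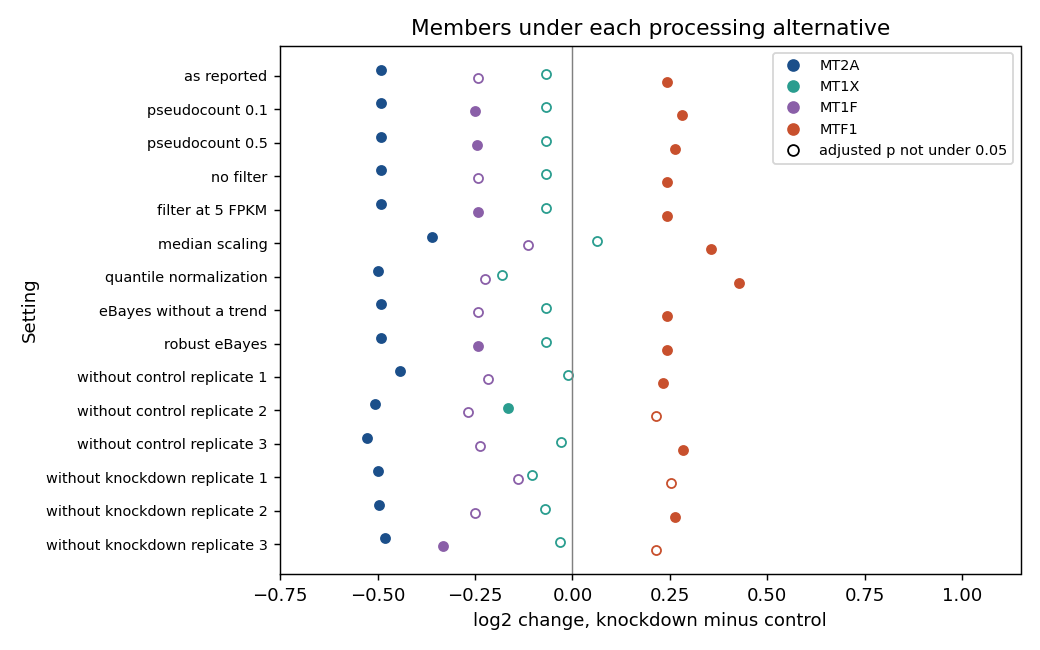
Difference in log2 FPKM, knockdown minus control, for MT2A, MT1X, MT1F and MTF1 under the reported setting and each of 14 alternatives; open points did not pass at an adjusted p of 0.05. MT2A is filled in every row (-0.53 to -0.36), MTF1 is open in 3 rows, MT1F changes between filled and open, and MT1X crosses 0 after median scaling.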

How the data were processed

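RNA-seq values of 6 A549 libraries, 3 control and 3 FOXD3 knockdown, were used. The authors deposited FPKM per gene for each library and, in a table of their comparison, their group FPKM with p-value, log2 fold change and false discovery rate columns. The submitters' processing notes name hg19, TopHat2 2.0.12, Bowtie, Cufflinks 2.0.2 and Cuffdiff but give neither their roles nor their order. Annotation, strand setting and read length were not given in these sources. FPKM were summed over rows of a symbol, and a symbol not listed was set to 0. Genes averaging 0.5 FPKM or more were tested as log2(FPKM + 1) with limma 3.58.1 in R 4.3.3 (two-sided, trended eBayes; a call is an adjusted p under 0.05 by Benjamini-Hochberg over all tested genes); this scale understates changes of low genes. FOXD3 and ratios between members were tested by exact permutation over libraries. The limma step was tested on simulated data. Depth was estimated from intronless genes of at least 2500 bases whose single-fragment FPKM implied 5000000 to 12000000 fragments, so it is rough and cannot leave that window. Starts in the files count from 0 and are printed from 1. Members and gene lists were chosen with earlier results of these data known. Named genes were the members, listed metallothioneins, up to 4 called and 3 other genes of each list, and the 3 genes most like each member; SLC30A9 and the genes beside the cluster were named after their values were seen. Not every gene selected is printed. Alternatives covered the pseudocount (0.1, 0.5), the filter (none, 5 FPKM), eBayes run robustly or untrended, quantile normalization, median scaling, and leaving out each library.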

Additional observations from a re-analysis of the deposited data

How the results depend on the processing

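No paired analysis was possible because the labels give the libraries no replicate numbers; those used here follow accession order. Of all tested genes 3417 were higher and 5050 lower as reported; the filter at 5 FPKM, which tests fewer genes, left 3295 lower, and leaving out 1 library gave 2961 to 3406 higher and 4519 to 5063 lower. The share of calls that were higher was 40.4% as reported, 47.4% with that filter, 53.6% after median scaling and 52.4% after quantile normalization. MT2A passed in every alternative. MT1F, at -0.24 and not called, passed at -0.25 with a pseudocount of 0.1 or 0.5 and at -0.24 with the filter at 5 FPKM or robust eBayes; leaving out 1 library gave -0.33 to -0.14. MT1X was 0.063 after median scaling, a change of sign, and -0.17 to -0.010 with 1 library left out. MTF1 gave 0.21 to 0.28 with 1 library left out, below the threshold in 3 of the 6 runs. The summed metallothionein FPKM differed by -371 as reported and by -255 after median scaling. Signs also turned, for genes that had not passed, in ATOX1 (0.043 after median scaling), ATPAF2 (0.073 after median scaling, 0.11 after quantile normalization and -0.13 to 0.014 with 1 library left out), MT1DP (-0.64 without control replicate 1, -0.22 without knockdown replicate 2 and up to 0.55 with another library left out), RRAGA (0.018 after median scaling), SLC30A3 (0.019 after quantile normalization), SLC30A5 (-0.029 to 0.13 with 1 library left out), SLC30A7 (0.0057 after median scaling and 0.058 after quantile normalization), SLC39A10 (0.091 and 0.054 in the same order), SLC39A8 (0.029 after median scaling) and TXNRD1 (-0.10 after quantile normalization). The causes were not tested. Over 50 named genes that are no members, 638 of 688 alternative values kept direction and side of the threshold. Depth limits MT1E, MT1B, MT3 and MT4, each at a few fragments.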
